A study of Mus musculus with 18 samples.

Results

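The genes described here are 36 mouse genes of sterol and fatty acid synthesis and its control, chosen by symbol from the 24527 entries of a raw RNA-seq count table. They comprise 9 genes of the mevalonate branch, 10 of the later sterol steps, 5 of regulation by the sterol regulatory element-binding proteins (SREBPs), 4 of sterol transport, uptake and efflux and 8 of fatty acid synthesis. The libraries come from PD454, PD7591 and PD883, cultured lines of murine pancreatic ductal adenocarcinoma whose strain background is labelled as mixed. Each line was exposed for 48 h to 2.5 µM ionomycin (a calcium ionophore), to 10 ng/ml TGFb (a growth factor under which many carcinoma cells lose epithelial traits) or to DMSO as the vehicle. Each of the 9 groups held 2 libraries, 6 per treatment and 18 in all. The title of the series places the comparison in a study of calcium signalling and epithelial-mesenchymal transition. All groups were grown in the same DMEM/F12-based medium, which contained insulin, dexamethasone, cholera toxin, pituitary extract and a serum supplement, so that lipid-regulating hormones and some serum lipid were present under every treatment. The labels do not say that the paired libraries came from separate cultures, so the p-values measure the spread between these libraries, which may be technical, together with differences between the lines.

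Cholesterol is built from acetyl-CoA by way of mevalonate, the isoprenoid farnesyl pyrophosphate, squalene and lanosterol, and mevalonate-derived isoprenoids also serve protein prenylation. SREBPs are transcription factors held in the endoplasmic reticulum membrane with the escort protein Scap. When sterols are low, Scap carries them to the Golgi, where proteases release the active factor. When sterols are high, the Insig proteins retain Scap in the endoplasmic reticulum. The factor encoded by Srebf2 acts mainly on sterol genes and those encoded by Srebf1 mainly on fatty acid genes, while LXR receptors, activated by oxysterols, raise the efflux pumps Abca1 and Abcg1. Many carcinomas depend on synthesis of both kinds of lipid for membranes.

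Library totals ran from 17591005 to 37894692 counts, and levels are given as CPM, read counts scaled to a common library size with TMM factors. A low-count filter left 13827 entries for testing, among them 35 of the 36 genes; only Mylip fell below it. Apart from Mylip, Abca1 and Abcg1, the lowest count of any gene in any library was 142, for Pmvk in an ionomycin library of PD7591. The 36 genes together took 0.447% to 0.862% of the counts of the ionomycin libraries, 0.849% to 1.3% with TGFb and 1.33% to 1.66% with DMSO. The libraries numbered 8, 12, 14 and 18 in the labels (2 of DMSO and 2 of TGFb) had more signal from short transcripts than the others. To see this, the mean log2 CPM of each gene over the 18 libraries was subtracted from its log2 CPM. Across 13467 genes these differences correlated with log2 transcript length at -0.194 to -0.106 in the 4 libraries, against -0.065 to 0.151 elsewhere. The epithelial markers Krt8 and Krt18 were abundant in all libraries (1380 to 3830 CPM), whereas Epcam reached only 0.732 to 4.3 CPM. Summed immune markers reached 8.37 to 29.2 CPM with ionomycin, 2.79 to 3.64 CPM with TGFb and 3.18 to 5.99 CPM with DMSO, mostly from Cd68, while the leukocyte marker Ptprc stayed at or below 0.274 CPM. Summed fibroblast markers ran from 0.659 to 1.74 CPM, from 1.59 to 17 CPM and from 0.48 to 1.82 CPM in the same order, endothelial markers stayed at or below 2.79 CPM, acinar markers at or below 6.23 CPM with Cpa1 and Ptf1a at 0 counts, and endocrine markers at or below 0.3 CPM with Ins1 and Ins2 at 0 counts.

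The promoters of several genes are shown because SREBPs are known to act on sterol gene promoters together with the CCAAT-binding factor NF-Y. RefSeq promoters (GRCm38.p6, 250 bases before to 50 after a start site) were found for 28 of the 36 genes. Fdps, Fdft1, Sqle, Stard4 and Abcg1 were among those without one, so the shares below say nothing about them. The 6 shown include Pmvk and Nsdhl, the genes with the smallest p for ionomycin in the mevalonate and sterol groups. Insig1 and Insig2 are a related pair that moved in opposite directions with ionomycin, and Hmgcs1 holds a sterol regulatory element. Apart from Insig1 and Hmgcs1, a gene had to hold CCAAT in the stretch shown. Fasn was taken for fatty acid synthesis on that condition, although other genes of its group, such as Elovl6, had a smaller p. Each runs 5′ to 3′ from 160 bases before to 10 bases after the start site; capitals mark CCAAT on either strand (ATTGG is its reverse complement) and, in Hmgcs1, the sterol regulatory element TCACCCCAC.
Pmvk, chr3:89454381-89454550, plus strand: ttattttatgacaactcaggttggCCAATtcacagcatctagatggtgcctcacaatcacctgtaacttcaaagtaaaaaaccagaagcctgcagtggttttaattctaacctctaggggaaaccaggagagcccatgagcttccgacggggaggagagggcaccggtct
Nsdhl, chrX:72918361-72918530, plus strand: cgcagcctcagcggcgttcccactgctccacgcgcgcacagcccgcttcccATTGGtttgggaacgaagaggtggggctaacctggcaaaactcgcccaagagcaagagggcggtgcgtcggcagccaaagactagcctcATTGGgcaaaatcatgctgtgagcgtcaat
Insig2, chr1:121332580-121332749, minus strand: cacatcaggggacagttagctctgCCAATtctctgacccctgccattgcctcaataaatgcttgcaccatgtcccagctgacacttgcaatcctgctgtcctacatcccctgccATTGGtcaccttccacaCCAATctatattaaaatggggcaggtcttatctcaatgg
Insig1, chr5:28071252-28071421, plus strand: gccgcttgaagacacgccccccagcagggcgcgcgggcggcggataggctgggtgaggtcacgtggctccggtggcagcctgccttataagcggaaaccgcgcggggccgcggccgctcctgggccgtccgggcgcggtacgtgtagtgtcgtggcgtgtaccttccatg
Fasn, chr11:120824538-120824707, minus strand: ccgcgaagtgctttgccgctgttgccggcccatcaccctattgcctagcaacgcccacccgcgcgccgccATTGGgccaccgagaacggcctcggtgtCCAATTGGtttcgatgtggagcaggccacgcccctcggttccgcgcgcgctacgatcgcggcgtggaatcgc
Hmgcs1, chr13:119690191-119690360, plus strand: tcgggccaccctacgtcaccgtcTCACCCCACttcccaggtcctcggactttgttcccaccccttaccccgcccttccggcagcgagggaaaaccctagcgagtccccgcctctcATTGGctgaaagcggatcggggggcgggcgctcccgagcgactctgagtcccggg
Searched on both strands over the 300 bases, with a gene counted when any of its promoters held the motif, CCAAT occurred in 22 of the 28 genes (78.6%), against 41.1% of all 27025 genes of the table and 43% of the 10542 of them that were tested here. The GC box GGGCGG, a binding sequence of SP factors, occurred in 23 of the 28 (82.1%), against 38.2% and 67.7%. Both motifs occurred in all 9 genes of the sterol steps that had a promoter. Of the 5 fatty acid genes with a promoter, by contrast, 2 (40%) held CCAAT and 2 (40%) held the GC box. The consensus sterol regulatory element TCACNCCAC occurred in 1 of the 28 (3.57%), at position -137 of Hmgcs1, against 1.44% and 1.42%. The shorter CACNCCAC, contained in it, occurred in 3 of the 28 (10.7%), against 7.8% of the tested genes. Those 3 were Hmgcs1, Acat2 and Insig1, the match of Insig1 lying at -9 on the minus strand relative to the gene. The CCAAT matches and the element do not overlap in the sequences shown, but a CCAAT and an ATTGG overlap in Fasn. In the 170 bases shown Insig1 holds no CCAAT, and its 1 match lies outside it. These are matches of letters in a fixed window and not binding sites.

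Ionomycin lowered most of the genes. Against DMSO, 29 of the 35 tested genes fell and 1 rose (edgeR quasi-likelihood test over the 3 lines, Benjamini-Hochberg adjusted p under 0.05), beside 33.3% of all tested entries called (16.1% lower and 17.2% higher). The median log2 fold change of the 35 was -0.84, against -0.03 for all entries tested. All 10 sterol-step genes fell, as did 8 of 9 mevalonate genes, 7 of 8 fatty acid genes, 2 of 3 transport and efflux genes and 2 of 5 regulators. The riser was the regulator Insig2, and the 5 that did not pass were Ggps1, Srebf2, Scap, Abca1 and Acaca. For 26 genes both ionomycin libraries lay below both DMSO libraries in each of the 3 lines, beside 10.4% of all entries. In bulk RNA a smaller share of cells of one kind and less RNA per cell cannot be told apart. The macrophage-lineage marker Cd68 was higher with ionomycin (log2 fold change 2.03, adjusted p = 8.52e-06), with Ptprc near 0 in all libraries. The endothelial markers Cdh5 (2.35, adjusted p = 0.00796) and Pecam1 (1.42, adjusted p = 0.0381) also rose, at levels of at most 2.62 and 0.753 CPM. Of the 5 epithelial markers Krt18 rose (0.39, adjusted p = 0.012), and Krt8 (-0.03), Krt19 (-0.07), Cdh1 (-0.09) and Epcam (0.31) did not pass. The part of these markers in the result was not tested. Of the falls, 22 passed when the duplicates were summed to 1 sample per line and treatment. In that setting 1840 of all entries were called in either direction, against 4599 in the main test. Without libraries 8, 12, 14 and 18 there were 28 falls, beside 3767 entries called. These falls lacked Ebp and Msmo1 and included Acaca.

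TGFb also lowered more of the genes than it raised. Against the same DMSO libraries, 19 of 35 fell, 3 rose and 13 did not pass, beside 50.7% of all entries called (26.5% lower and 24.3% higher), with a median log2 fold change of -0.41 against 0.00 for all entries. Falls numbered 6 of 9 mevalonate genes, 4 of 10 sterol-step genes, 4 of 5 regulators, 1 of 3 transport and efflux genes and 4 of 8 fatty acid genes. The 3 risers were Ggps1, Abcg1 and Acly. Both TGFb libraries lay below both DMSO libraries in every line for 12 genes and above them for 3, beside 17.5% and 15.7% of all entries. Of the 5 epithelial markers Krt19 (log2 fold change -5.86, adjusted p = 8.98e-10), Cdh1 (-3.34, adjusted p = 3.15e-08) and Epcam (-1.07, adjusted p = 2.41e-04) fell in the same comparison, Krt18 rose (0.29, adjusted p = 0.0377) and Krt8 did not pass (-0.25, adjusted p = 0.125). The fibroblast marker Pdgfrb (5.47, adjusted p = 2.72e-07) and the acinar marker Cela1 (3.19, adjusted p = 2.02e-06) rose and the T-cell marker Cd3e fell (-2.11, adjusted p = 0.00811). Over all libraries these 3 reached at most 15, 6.18 and 1.1 CPM. The fibroblast markers Dcn (0.21) and Pdgfra (0.53) and the immune marker Cd68 (-0.17) did not pass, and the fibroblast markers Lum and Thy1 were not tested. The part of these markers in the result was not tested. With duplicates summed 12 genes fell and 2 rose, beside 4581 of all entries called in either direction, against 7015 in the main test. Without PD7591 14 genes fell (5063 entries called) and without PD883 14 fell (6035 entries called). Without libraries 8, 12, 14 and 18 there were 16 falls (6502 entries called). Because both comparisons use the same 6 DMSO libraries, their values are set side by side below and are not independent measurements.

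**Figure D1:**
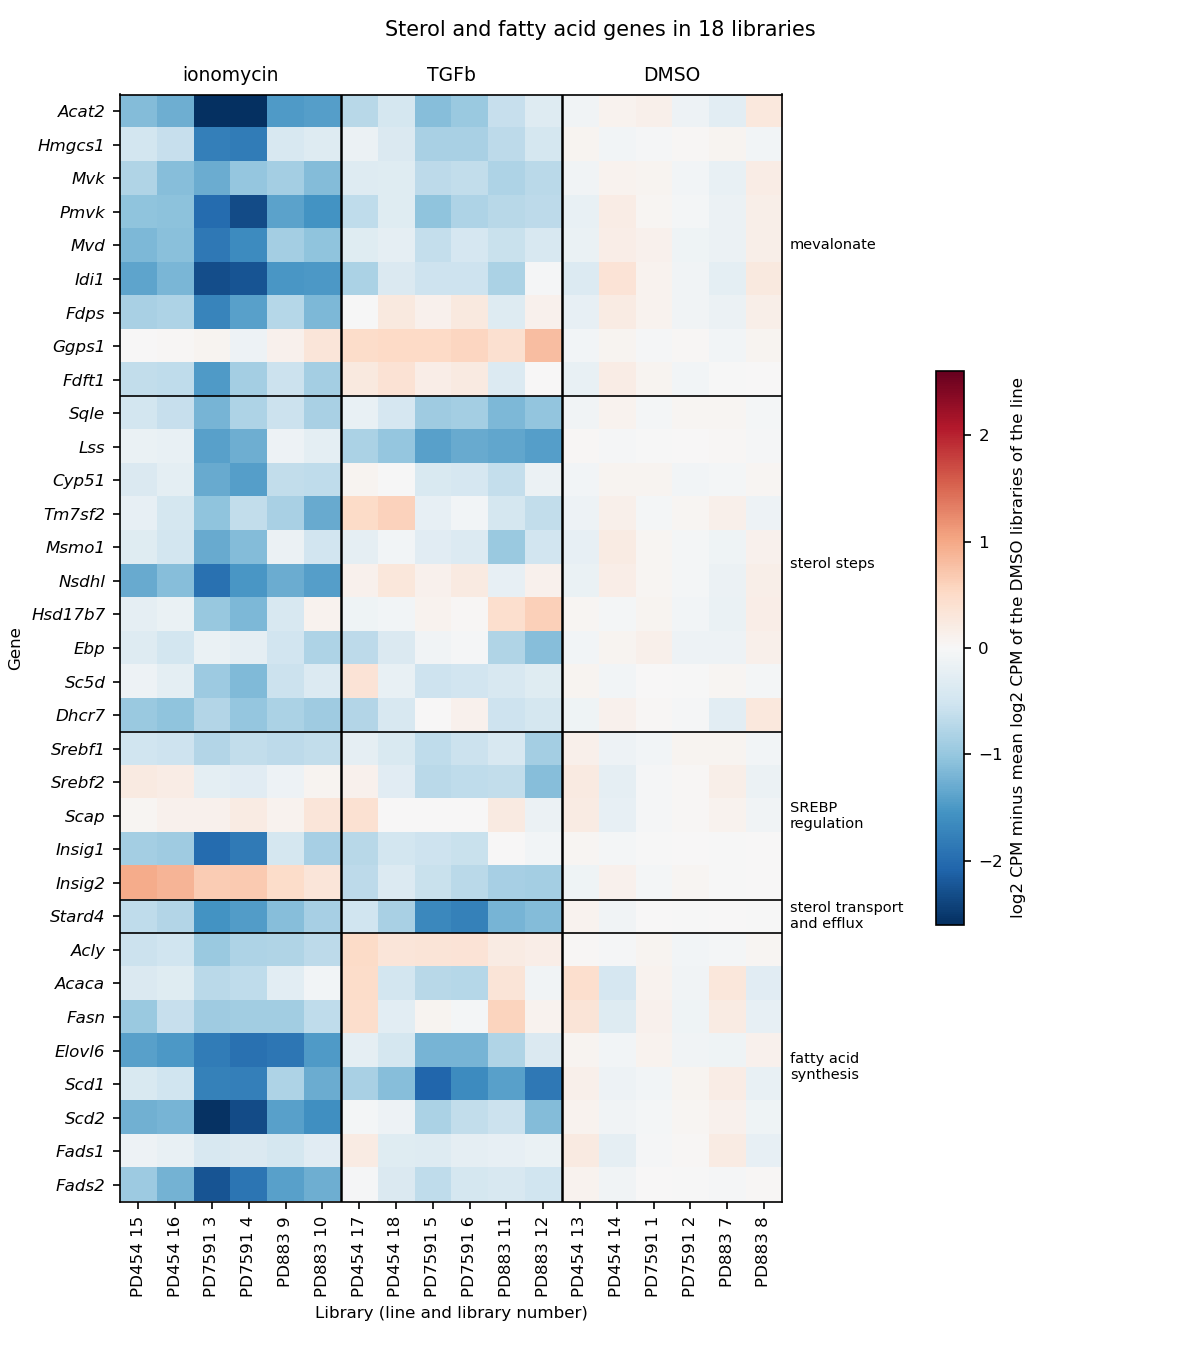
Heatmap of 33 genes (rows, grouped by role) in the 18 libraries (columns, by treatment), coloured by log2 CPM minus the mean log2 CPM of the DMSO libraries of the same line; Mylip, Abca1 and Abcg1 are left out because of their low counts. The ionomycin columns are blue for most genes, deepest in PD7591, and Insig2 is red there; Lss, Scd1 and Stard4 are blue in the TGFb columns as well.

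In the mevalonate branch 8 of the 9 genes fell with ionomycin (median of the 9 log2 fold changes -1.09) and 6 fell with TGFb (median -0.52). Levels below are the lowest, median and highest of the 6 libraries of a treatment. Acat2, the cytosolic thiolase that joins acetyl-CoA units, measured 73.5, 172 and 195 CPM with ionomycin, 207, 283 and 371 CPM with TGFb and 387, 430 and 563 CPM with DMSO. The ranges of the 3 treatments did not overlap, and the lowest ionomycin libraries were those of PD7591. Its log2 fold change was -1.74 ± 0.18 with ionomycin (± SE here and below, adjusted p = 1.22e-06) and -0.73 ± 0.17 with TGFb (adjusted p = 0.00192).
Hmgcs1, the synthase that makes HMG-CoA, measured 182, 435 and 478 CPM with ionomycin, 358, 405 and 571 CPM with TGFb and 573, 631 and 663 CPM with DMSO. Libraries of both treatments lay below all DMSO libraries, and the ionomycin and TGFb ranges overlapped. The log2 fold changes were -0.88 ± 0.18 with ionomycin (adjusted p = 0.001, 0.0619 with duplicates summed) and -0.58 ± 0.17 with TGFb (adjusted p = 0.0102, 0.126 with duplicates summed).

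The 3 steps that turn mevalonate into isopentenyl pyrophosphate fell with both treatments. Mvk, mevalonate kinase, measured 29, 33.6 and 37.1 CPM with ionomycin, 39.6, 45.1 and 50.5 CPM with TGFb and 59.1, 67.1 and 79 CPM with DMSO. The ranges of the 3 treatments did not overlap. The log2 fold change of Mvk was -1.03 ± 0.10 with ionomycin (adjusted p = 9.53e-07) and -0.58 ± 0.10 with TGFb (adjusted p = 1.26e-04). Pmvk, phosphomevalonate kinase, measured 7.64, 26.4 and 36.6 CPM with ionomycin, 18.7, 45.1 and 60.6 CPM with TGFb and 37, 65.9 and 85.9 CPM with DMSO. The highest ionomycin library fell just short of the lowest DMSO library, which was one of PD7591, the line with least Pmvk under each treatment. Pmvk changed by -1.55 ± 0.15 with ionomycin (adjusted p = 4.41e-07) and by -0.72 ± 0.14 with TGFb (adjusted p = 3.67e-04). Mvd, mevalonate pyrophosphate decarboxylase, measured 26.6, 62 and 74.3 CPM with ionomycin, 62.6, 97.7 and 115 CPM with TGFb and 88.5, 122 and 153 CPM with DMSO. The ionomycin libraries lay below all DMSO libraries, and the TGFb libraries below those of their own line. Mvd changed by -1.27 ± 0.13 with ionomycin (adjusted p = 7.28e-07) and by -0.44 ± 0.12 with TGFb (adjusted p = 0.0061, 0.0633 with duplicates summed, 0.0524 without libraries 8, 12, 14 and 18).

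The later genes of the branch make and join the prenyl chains. Ggps1, which makes the geranylgeranyl pyrophosphate used in protein prenylation, measured 39.5, 42.8 and 55.5 CPM with ionomycin, 48.6, 60 and 78.5 CPM with TGFb and 34.7, 39.8 and 54.3 CPM with DMSO. Within each line both TGFb libraries were the highest. The ionomycin and DMSO libraries overlapped in PD454 and PD7591, while in PD883 both ionomycin libraries (39.5 and 45.3 CPM) lay above both DMSO libraries (34.7 and 38.2 CPM). Ggps1 rose with TGFb (0.55 ± 0.09, adjusted p = 3.31e-05) and measured 0.07 ± 0.09 with ionomycin (adjusted p = 0.559). Idi1, isopentenyl pyrophosphate isomerase, changed by -1.69 ± 0.18 with ionomycin (adjusted p = 2.11e-06) and by -0.52 ± 0.18 with TGFb (adjusted p = 0.0208). That second call was lost on leaving out any one of libraries 1, 2, 8, 11, 14 and 17 (adjusted p up to 0.0745) or line PD7591 (0.0852). It was also lost with duplicates summed (0.0653) and without libraries 8, 12, 14 and 18 together (0.058). Fdps, farnesyl pyrophosphate synthase, changed by -1.09 ± 0.15 with ionomycin (adjusted p = 2.67e-05) and measured 0.07 ± 0.15 with TGFb (adjusted p = 0.717). Fdft1, squalene synthase, changed by -0.84 ± 0.13 with ionomycin (adjusted p = 1.24e-04) and measured 0.12 ± 0.13 with TGFb (adjusted p = 0.45). In the annotation (GENCODE vM21) 18.3% of the exon bases of Fdft1 lie over exons of the lysosomal protease gene Ctsb on the other strand, 26.7% of those of Fdps over the model Gm43738 on the same strand, and 12.1% of those of Hmgcs1 over the antisense model Gm48342. The strand mode of the counting is not given in the sources used here, so the counts of Fdft1 and Hmgcs1 are uncertain to that extent. For Fdps, which lies on the same strand as its model, strand mode could not separate the reads. How the counting assigned reads over both is not given either.

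All 10 genes of the sterol steps fell with ionomycin (median -0.69) and 4 fell with TGFb (median -0.31). With duplicates summed the ionomycin calls of Lss (adjusted p = 0.17), Msmo1 (0.0813), Hsd17b7 (0.169), Ebp (0.128) and Sc5d (0.0632) were lost. Nsdhl, a dehydrogenase of the demethylation of the sterol ring, measured 21.3, 45.7 and 52.2 CPM with ionomycin, 87.5, 113 and 137 CPM with TGFb and 78.9, 105 and 141 CPM with DMSO. The ionomycin libraries lay below all others, and the TGFb and DMSO ranges largely coincided. Nsdhl changed by -1.42 ± 0.12 with ionomycin (adjusted p = 1.24e-07) and measured 0.11 ± 0.12 with TGFb (adjusted p = 0.454). Dhcr7, the reductase of the last step to cholesterol, measured 34, 42.2 and 49 CPM with ionomycin, 41, 57.6 and 89.2 CPM with TGFb and 64.7, 78 and 98.2 CPM with DMSO. The ionomycin libraries lay below all DMSO libraries, and the 2 highest TGFb libraries were those of PD7591. Dhcr7 changed by -0.93 ± 0.12 with ionomycin (adjusted p = 1.82e-05) and by -0.34 ± 0.12 with TGFb (adjusted p = 0.0245). The TGFb call was lost without any one of libraries 8, 11, 12, 13, 14, 17 and 18 (adjusted p up to 0.118), without PD454 (-0.23, adjusted p = 0.224), without PD883 (-0.24, adjusted p = 0.18) and without libraries 8, 12, 14 and 18 together (-0.18, adjusted p = 0.3). It was lost as well with duplicates summed (adjusted p = 0.115).

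Sqle, squalene epoxidase, one of the slow steps of the pathway, measured 183, 355 and 435 CPM with ionomycin, 225, 300 and 466 CPM with TGFb and 409, 536 and 667 CPM with DMSO. Libraries of both treatments lay below the DMSO libraries of their own line in all 3 lines. Sqle changed by -0.75 ± 0.13 with ionomycin (adjusted p = 2.01e-04) and by -0.77 ± 0.13 with TGFb (adjusted p = 5.35e-05). Lss, lanosterol synthase, measured 79.9, 256 and 272 CPM with ionomycin, 80.5, 112 and 172 CPM with TGFb and 211, 292 and 312 CPM with DMSO. All TGFb libraries lay below all DMSO libraries, whereas of the ionomycin libraries only the 2 of PD7591, at 79.9 and 88.2 CPM, lay below the whole DMSO range and the others lay below the DMSO libraries of their own line. Lss changed by -0.55 ± 0.16 with ionomycin (adjusted p = 0.0132) and by -1.23 ± 0.16 with TGFb (adjusted p = 3.85e-06). The ionomycin call was lost without PD7591 (-0.17, adjusted p = 0.325), without library 4 of that line (-0.43, adjusted p = 0.0537) and with duplicates summed (adjusted p = 0.17). Cyp51, lanosterol demethylase, measured 157, 291 and 936 CPM with ionomycin, 297, 366 and 1180 CPM with TGFb and 403, 460 and 1180 CPM with DMSO. PD454 carried the highest values under each treatment, 868 and 936 CPM with ionomycin, 1120 and 1180 CPM with TGFb and 1070 and 1180 CPM with DMSO. Cyp51 changed by -0.77 ± 0.14 with ionomycin (adjusted p = 3.52e-04) and measured -0.27 ± 0.14 with TGFb (adjusted p = 0.112, and 0.0461 without PD454).

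The other 5 sterol-step genes changed by -0.76 to -0.43 on the log2 scale with ionomycin. Tm7sf2, a sterol reductase, changed by -0.76 ± 0.15 (adjusted p = 7.87e-04), Msmo1, the first oxidase of the demethylation, by -0.62 ± 0.17 (adjusted p = 0.0083), and Sc5d, a sterol desaturase, by -0.57 ± 0.13 (adjusted p = 0.00204). In the annotation 12.1% of the exon bases of Tm7sf2 lie over exons of Vps51 on the same strand. Hsd17b7, a ketoreductase, changed by -0.47 ± 0.15 (adjusted p = 0.025) and Ebp, a sterol isomerase, by -0.43 ± 0.13 (adjusted p = 0.0125). Without PD7591 the calls of Msmo1 (-0.35, adjusted p = 0.165), Sc5d (-0.32, adjusted p = 0.125) and Hsd17b7 (-0.16, adjusted p = 0.48) were lost, as was that of Hsd17b7 without any one of libraries 1, 2, 3, 4, 9 and 13 (adjusted p up to 0.0902). The call of Ebp was lost without PD454 (adjusted p = 0.075), PD883 (0.0781) or DMSO library 8 (0.0526), and those of Ebp (0.0581) and Msmo1 (0.0526) without libraries 8, 12, 14 and 18. With TGFb, Ebp fell (-0.51 ± 0.13, adjusted p = 0.00229, and 0.0776 without PD883), while Tm7sf2 (-0.05), Msmo1 (-0.39), Hsd17b7 (0.16) and Sc5d (-0.27) did not pass. Msmo1 missed narrowly (adjusted p = 0.0584) and passed without library 3 (0.0485) or 13 (0.0489), with library totals (0.0477), with DESeq2 (0.0486), with the libraries of both treatments alone (0.0164) and with a mean per group (0.00505). Sc5d, at adjusted p = 0.0804, passed without library 14 (0.0418) or 17 (0.023), without PD454 (0.00986) and with a mean per group (0.0273).

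Among the regulators the 2 Insig genes, whose proteins hold Scap in the endoplasmic reticulum, went opposite ways with ionomycin. Insig2 measured 56.8, 74 and 99.7 CPM with ionomycin, 21.9, 27.3 and 39.6 CPM with TGFb and 34.6, 39.4 and 72.7 CPM with DMSO. Within every line the ionomycin libraries were the highest and the TGFb libraries the lowest, and PD883 stood above the other lines under each treatment. Insig2 rose with ionomycin (0.66 ± 0.09, adjusted p = 3.35e-05) and fell with TGFb (-0.68 ± 0.09, adjusted p = 6.71e-06). Insig1, itself a known SREBP target, measured 71.1, 132 and 164 CPM with ionomycin, 160, 193 and 227 CPM with TGFb and 223, 264 and 285 CPM with DMSO. The ionomycin libraries lay below all DMSO libraries, with the 2 of PD7591 lowest. Insig1 changed by -1.13 ± 0.16 with ionomycin (adjusted p = 4.96e-05) and by -0.41 ± 0.16 with TGFb (adjusted p = 0.0432). The TGFb call was lost on leaving out any one of 13 of the 18 libraries (adjusted p up to 0.138). It was also lost without PD454 (0.19), without PD7591 (0.0968) and with duplicates summed (0.209).

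Srebf1 measured 115, 139 and 147 CPM with ionomycin, 124, 143 and 172 CPM with TGFb and 184, 212 and 242 CPM with DMSO. Both treatments gave ranges below that of DMSO and overlapping each other. Srebf1 changed by -0.64 ± 0.09 with ionomycin (adjusted p = 4.51e-05) and by -0.52 ± 0.09 with TGFb (adjusted p = 1.20e-04). Srebf2 measured 626, 832 and 904 CPM with ionomycin, 402, 519 and 823 CPM with TGFb and 651, 779 and 965 CPM with DMSO. Ionomycin and DMSO libraries overlapped, and TGFb libraries of PD7591 and PD883 lay below both. Srebf2 measured -0.05 ± 0.14 with ionomycin (adjusted p = 0.819), a sign that turned without PD7591 (0.09) and without library 7 (0.03), and fell with TGFb (-0.55 ± 0.14, adjusted p = 0.00261). The TGFb call was lost without PD7591 (adjusted p = 0.0733) or PD883 (0.0531). Scap measured 105, 143 and 155 CPM with ionomycin, 88.5, 135 and 179 CPM with TGFb and 92, 125 and 158 CPM with DMSO, ranges that overlapped throughout. Its log2 fold changes of 0.15 ± 0.10 with ionomycin (adjusted p = 0.272) and 0.09 ± 0.10 with TGFb (adjusted p = 0.495) did not pass. In the annotation 13.2% of the exon bases of Scap lie over the model 5830462I19Rik on the other strand. RNA levels of these regulators do not measure the amount of processed SREBP.

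**Figure D2:**
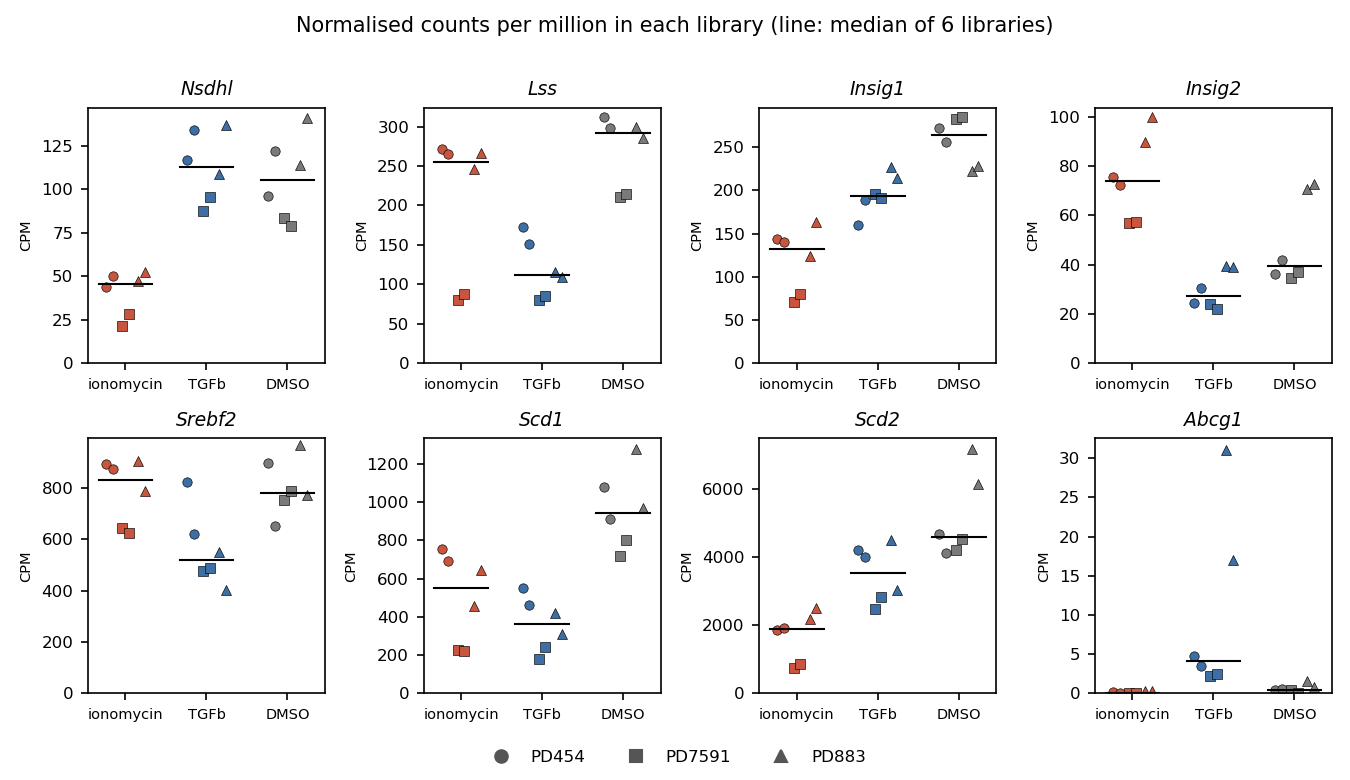
CPM of 8 genes in each of the 18 libraries (points, shaped by line), with the median of the 6 libraries of a treatment as a line; each panel has its own linear axis from 0. Nsdhl is low with ionomycin alone, Lss is low with TGFb in all lines and with ionomycin in PD7591, Insig2 is highest with ionomycin within each line, and Abcg1 is above 2 CPM with TGFb alone.

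Of the transport and efflux genes Stard4, which encodes a cytosolic sterol carrier, measured 89.3, 128 and 159 CPM with ionomycin, 78.1, 112 and 176 CPM with TGFb and 237, 258 and 266 CPM with DMSO. Both treatments lay below all DMSO libraries, whose 6 values were close together. Stard4 changed by -1.08 ± 0.13 with ionomycin (adjusted p = 8.15e-06) and by -1.20 ± 0.13 with TGFb (adjusted p = 5.47e-07). Abcg1, a sterol efflux pump and known LXR target, measured 0, 0.116 and 0.298 CPM with ionomycin, 2.17, 4.1 and 31 CPM with TGFb and 0.0436, 0.483 and 1.54 CPM with DMSO, from 18, 1594 and 80 counts in all. All TGFb libraries lay above all others, and those of PD883, at 31 and 17 CPM, stood far above those of PD454 (4.75 and 3.46) and PD7591 (2.17 and 2.49). Abcg1 rose with TGFb (3.70 ± 0.33, adjusted p = 3.13e-08) and fell with ionomycin (-2.14 ± 0.47, adjusted p = 0.00204), a fall at counts near detection. Abca1, the other pump, stayed at or below 1.07 CPM and did not pass in either comparison with DMSO (-0.48 ± 0.51 with ionomycin, adjusted p = 0.492, which turned to 0.12 without PD883; 0.84 ± 0.46 with TGFb, adjusted p = 0.138). Mylip, a ubiquitin ligase for the low-density lipoprotein receptor, gave 14, 35 and 11 counts over the 6 libraries of ionomycin, TGFb and DMSO and was not tested.

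Fatty acid genes fell with ionomycin in 7 of 8 cases (median -0.97) and with TGFb in 4 of 8 (median -0.31). Elovl6, the elongase of palmitate, measured 65.2, 85.3 and 113 CPM with ionomycin, 129, 161 and 258 CPM with TGFb and 220, 285 and 319 CPM with DMSO. Ionomycin libraries lay below all others, and TGFb libraries below the DMSO libraries of their line. Elovl6 changed by -1.68 ± 0.13 with ionomycin (adjusted p = 4.75e-08) and by -0.70 ± 0.13 with TGFb (adjusted p = 1.45e-04). Scd2, a stearoyl-CoA desaturase, measured 736, 1880 and 2500 CPM with ionomycin, 2490, 3530 and 4520 CPM with TGFb and 4130, 4600 and 7180 CPM with DMSO. All ionomycin libraries lay below all DMSO libraries, and the highest of them just above the lowest TGFb library. Per kilobase of annotated exon Scd2 was the most abundant of the 36 genes, with a median of 842 CPM per kb with DMSO against 193 CPM per kb for its neighbour on chromosome 19, Scd1. Scd2 changed by -1.72 ± 0.18 with ionomycin (adjusted p = 1.27e-06) and by -0.56 ± 0.17 with TGFb (adjusted p = 0.0123). The second call was lost without PD7591 (0.0661), PD883 (0.0993) or library 2 (0.0515), and with duplicates summed (0.106). Scd1 measured 223, 550 and 753 CPM with ionomycin, 181, 365 and 551 CPM with TGFb and 719, 942 and 1280 CPM with DMSO. All TGFb libraries lay below all DMSO libraries, and the highest ionomycin libraries, those of PD454, reached the lowest of DMSO. Scd1 changed by -1.09 ± 0.18 with ionomycin (adjusted p = 1.34e-04) and by -1.50 ± 0.18 with TGFb (adjusted p = 1.09e-06). Scd1 and Scd2 are paralogs, and how the authors' counting treated reads that match both is not given in the sources used here.

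Fads2, a front-end desaturase of polyunsaturated fatty acids, measured 50.9, 82.5 and 149 CPM with ionomycin, 147, 166 and 281 CPM with TGFb and 204, 241 and 309 CPM with DMSO. Ionomycin libraries lay below all DMSO libraries, and the highest of them, from PD454, overlapped the lowest with TGFb. Fads2 changed by -1.49 ± 0.14 with ionomycin (adjusted p = 3.19e-07) and by -0.42 ± 0.13 with TGFb (adjusted p = 0.0136). The second call was lost without libraries 1, 2 or 18 (adjusted p up to 0.0593), PD7591 (0.0536) or PD883 (0.103), and with duplicates summed (0.116). Acly, which makes cytosolic acetyl-CoA from citrate, measured 232, 296 and 325 CPM with ionomycin, 536, 585 and 609 CPM with TGFb and 421, 463 and 542 CPM with DMSO. Within each line the ionomycin libraries were lowest and the TGFb libraries highest. Acly fell with ionomycin (-0.72 ± 0.09, adjusted p = 5.66e-06) and rose with TGFb (0.31 ± 0.08, adjusted p = 0.00518, and 0.0626 without PD454 and 0.107 with duplicates summed). Fasn, fatty acid synthase, changed by -0.84 ± 0.14 with ionomycin (adjusted p = 2.35e-04) and measured 0.14 ± 0.14 with TGFb (adjusted p = 0.417). Fads1, another front-end desaturase, encoded next to Fads2, changed by -0.32 ± 0.11 with ionomycin (adjusted p = 0.0259). That call was lost without any one of libraries 1, 2, 3, 4, 7, 9, 13 and 16 (adjusted p up to 0.0814). It was also lost without PD7591 (0.226), without PD883 (0.14), without the low-count filter (0.0553) and with duplicates summed (0.17). With TGFb Fads1 measured -0.18 (adjusted p = 0.154). Acaca, acetyl-CoA carboxylase, measured -0.44 ± 0.18 with ionomycin (adjusted p = 0.0687) and -0.20 ± 0.18 with TGFb (adjusted p = 0.368; without PD7591 the difference was 0.07). The ionomycin difference of Acaca passed without library 8 (adjusted p = 0.0351), 14 (0.0211) or 17 (0.0445), and at -0.68 without libraries 8, 12, 14 and 18 together (adjusted p = 0.00165).

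Set directly against TGFb, ionomycin left 22 of the 35 genes lower and 4 higher, beside 62.9% of all tested entries called (31.9% lower and 31% higher), with a median of -0.58 against -0.04. For 20 genes the ionomycin libraries lay below the TGFb libraries in every line and for 2, Insig2 and Srebf2, above them, beside 22.9% and 23.1% of all entries. By role, 8 of 9 mevalonate genes, 6 of 10 sterol-step genes, 1 of 5 regulators, 2 of 3 transport and efflux genes and 5 of 8 fatty acid genes were lower with ionomycin. The differences were greatest for Abcg1 (-5.84 ± 0.41, adjusted p = 7.54e-10) and Nsdhl (-1.53 ± 0.12, adjusted p = 3.33e-09), and Insig2 was the most different in the other direction (1.34 ± 0.09, adjusted p = 8.00e-10). Fdps (-1.16 ± 0.15, adjusted p = 2.35e-06), Fdft1 (-0.96 ± 0.13, adjusted p = 6.02e-06), Acly (-1.03 ± 0.09, adjusted p = 8.32e-09) and Fasn (-0.99 ± 0.14, adjusted p = 1.07e-05) were also lower with ionomycin. Lss was higher with ionomycin than with TGFb (0.68 ± 0.16, adjusted p = 0.0012, and 0.0748 without PD883), as were Srebf2 (0.50 ± 0.14, adjusted p = 0.00375, and 0.0669 without PD883) and Scd1 (0.41 ± 0.17, adjusted p = 0.0464, lost without any one of 12 of the 18 libraries with adjusted p up to 0.139). Sqle (0.02 ± 0.13, adjusted p = 0.894) and Stard4 (0.11 ± 0.13, adjusted p = 0.463) were lower with each treatment than with DMSO, and their difference between the treatments did not pass. Among the lower genes, the call of Sc5d (-0.30, adjusted p = 0.0444) was lost without any one of 10 libraries (adjusted p up to 0.165) and that of Abca1 (-1.32, adjusted p = 0.026) without any one of 5 (adjusted p up to 0.0731). Without PD7591 those of Cyp51 (adjusted p = 0.08) and Hsd17b7 (0.052) were lost. Without libraries 8, 12, 14 and 18 there were 25 genes lower and 3 higher, Scd1 no longer among them. In that setting 8103 of all entries were called in either direction, against 8696 in the main test. Without PD883 there was 1 gene higher, beside 7777 entries called. With duplicates summed the calls of Sc5d (adjusted p = 0.199), Abca1 (0.0695) and Scd1 (0.131) were lost.

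**Figure D3:**
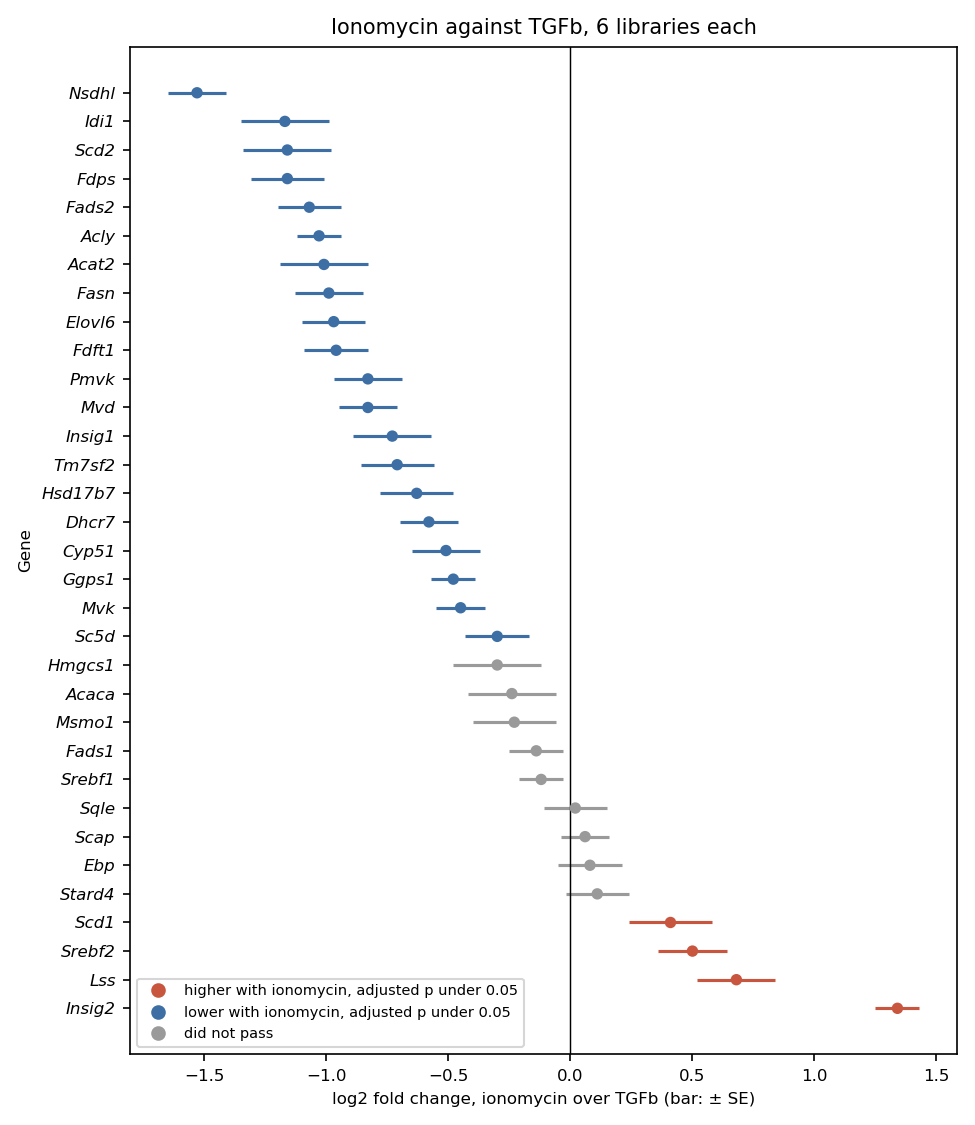
Log2 fold change of ionomycin over TGFb for 33 genes (6 libraries each, model over 3 lines), with bars of ± 1 SE and colours for the call; Abca1 and Abcg1 are left out for their low counts. Nsdhl lies at -1.53 and Insig2 at 1.34, with Lss, Srebf2 and Scd1 the other 3 genes called higher with ionomycin.

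The response was compared between lines. With ionomycin, 19 genes fell in PD454 (median of 35 genes -0.54), 26 in PD7591 (median -1.15) and 23 in PD883 (median -0.73), beside 9.34%, 7.41% and 10.9% of all entries lower and 21%, 18.6% and 22.5% called in either direction. Insig2 rose in each line, by 0.92 in PD454, 0.67 in PD7591 and 0.40 in PD883, but its call in PD883 was lost on leaving out any one of libraries 1, 2, 5, 6, 7, 8, 9, 10, 15 and 16. With TGFb, 9 genes fell in PD454 (median -0.17), 18 in PD7591 (median -0.53) and 19 in PD883 (median -0.49), beside 16.1%, 20.1% and 20% of all entries lower and 31%, 37.8% and 38.4% called in either direction. These counts rest on 2 against 2 libraries and varied when a library was left out: the ionomycin falls numbered 11 to 19 in PD454 and 15 to 24 in PD883, and the TGFb falls 3 to 9 in PD454 and 9 to 18 in PD7591. The lowest of these counts came without library 15 and library 10 for ionomycin and without library 17 and library 5 for TGFb.

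In a joint test of equal effects in the 3 lines, the ionomycin effect depended on the line in 6 of the 35 genes, beside 2.59% of all entries, and in all 6 the change was greatest in PD7591. The count was unstable: it ran from 3 to 10 on leaving out 1 library, the lowest without library 1, 3, 4 or 15 and the highest without library 8, and was 12 without the low-count filter and 16 without libraries 8, 12, 14 and 18. Hmgcs1 changed by -0.53 in PD454, -1.80 in PD7591 and -0.37 in PD883 (adjusted p = 0.00316 for dependence on line). Lss changed by -0.18, -1.34 and -0.19 in the same order of lines (adjusted p = 0.0038), and Insig1 by -0.90, -1.91 and -0.65 (adjusted p = 0.00903). These 3 calls held on leaving out each library in turn. Acat2 changed by -1.20, -2.61 and -1.47 (adjusted p = 0.0187), Cyp51 by -0.32, -1.37 and -0.65 (adjusted p = 0.0384) and Scd2 by -1.23, -2.44 and -1.51 (adjusted p = 0.0445). Their calls were lost on leaving out single libraries, 4 of 18 for Acat2 (1, 3, 4 and 15), 13 for Cyp51 and 10 for Scd2, with adjusted p up to 0.0948, 0.156 and 0.133. In the ionomycin libraries of PD7591 the ribosomal RNA gene Rn45s took 4.11% and 1.73% of the counts, against 2.26% and 2.14% in its DMSO libraries, and the part of such differences in the result was not tested. With TGFb, 1 gene passed, beside 5.26% of all entries: Stard4 changed by -0.67 in PD454, -1.72 in PD7591 and -1.18 in PD883 (adjusted p = 0.0158), a call lost without any one of libraries 1, 2, 5, 6, 14 and 17 (adjusted p up to 0.0793).

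**Figure D4:**
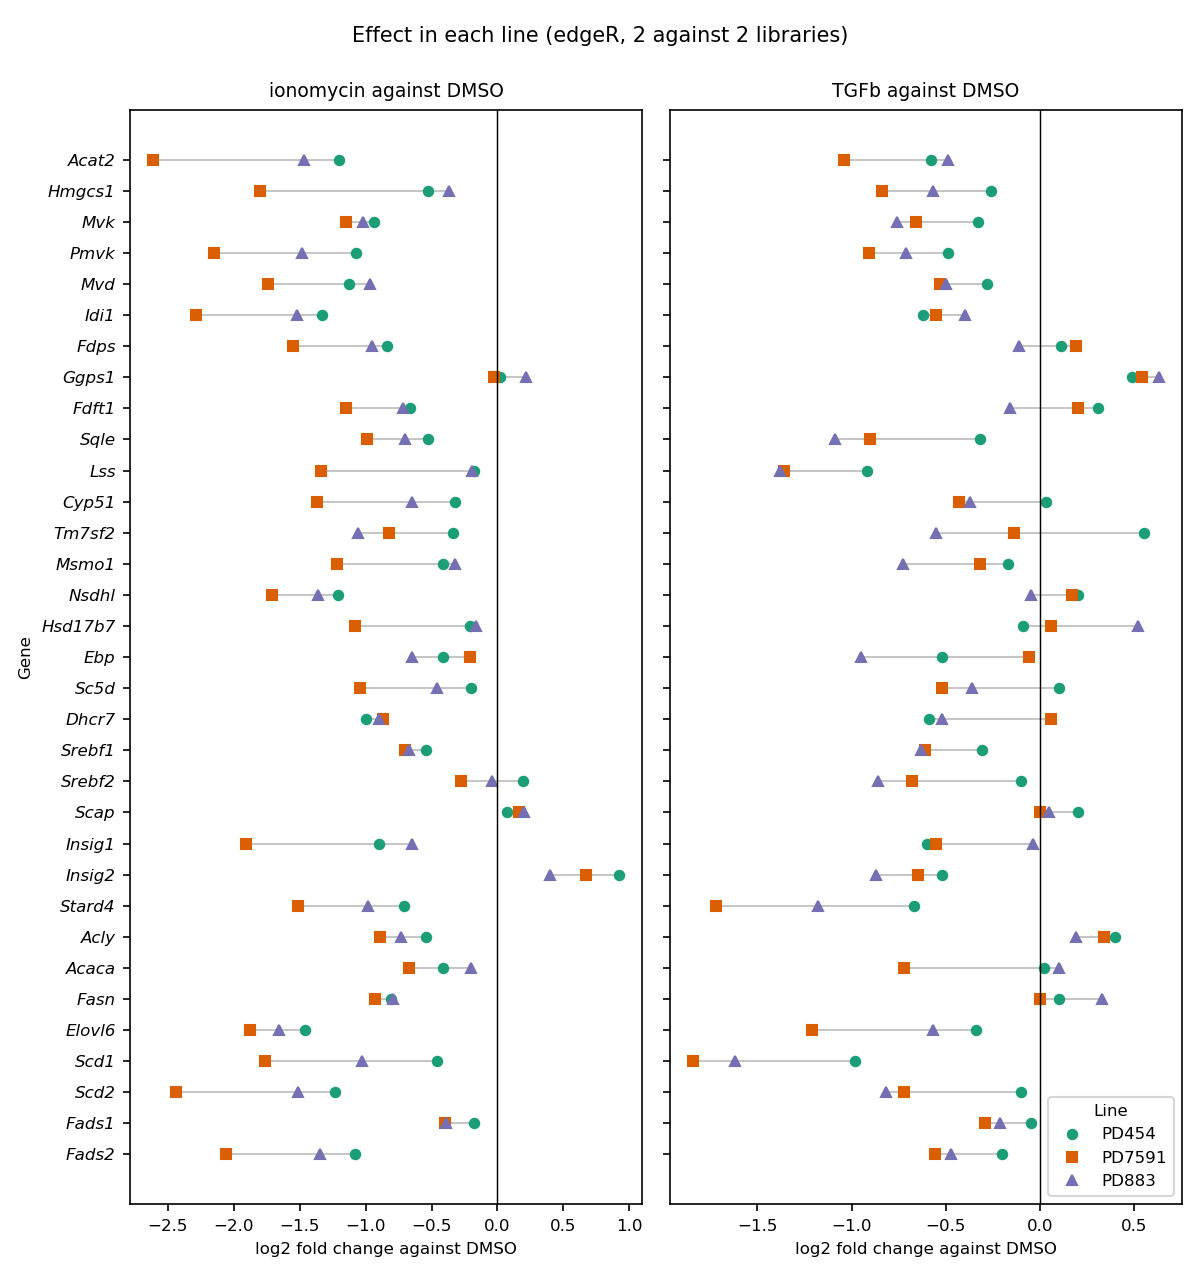
Log2 fold change against DMSO within each line (2 against 2 libraries) for 33 genes, with ionomycin at left and TGFb at right on axes of different range; Abca1 and Abcg1 are left out for their low counts. With ionomycin the PD7591 points lie farthest left for most genes, and Insig2 lies right of 0 in all 3 lines.

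A further 45 genes of the same pathways, all of them tested, were counted for comparison. With ionomycin 13 fell and 11 rose (median -0.09), beside 16.1% of all entries lower and 17.2% higher. With TGFb 19 fell and 6 rose (median -0.22), beside 26.5% lower and 24.3% higher, so that the genes called in either direction were near the 50.7% of all entries. Of 12 further genes of sterol synthesis, uptake and storage, 5 fell and 3 rose with ionomycin, and 7 fell and 3 rose with TGFb. Acss2, a cytosolic acetyl-CoA synthetase, measured 9.84, 28.1 and 42.5 CPM with ionomycin, 3.91, 9.72 and 17.6 CPM with TGFb and 32.7, 55.6 and 84.7 CPM with DMSO. Its TGFb libraries lay below all DMSO libraries (-2.54 ± 0.21, adjusted p = 1.31e-08). Soat1, which esterifies cholesterol for storage, measured 161, 198 and 211 CPM with ionomycin against 61.7, 99.4 and 115 CPM with TGFb, without overlap (1.05 ± 0.13, adjusted p = 1.38e-06).
Of 9 genes of SREBP processing, sterol-induced degradation and LXR, 6 rose and 1 fell with ionomycin, and 1 rose and 3 fell with TGFb. Mbtps2, the protease that completes the cleavage of SREBPs, measured 69.2, 95.1 and 100 CPM with ionomycin, 37.5, 45.1 and 52.6 CPM with TGFb and 44.4, 57.6 and 68.3 CPM with DMSO. Its ionomycin libraries lay above all others (0.65 ± 0.09 against DMSO, adjusted p = 1.97e-05). The 2 LXR genes went opposite ways with TGFb: Nr1h2 rose by 0.42 ± 0.09 (adjusted p = 8.36e-04), and Nr1h3, named after its values were seen, changed by -1.44 ± 0.32 (adjusted p = 0.0011). With ionomycin both rose, Nr1h2 by 0.28 ± 0.09 (adjusted p = 0.0225) and Nr1h3 by 0.90 ± 0.31 (adjusted p = 0.0344).
Of 9 genes of isoprenoid use, 1 rose and 2 fell with ionomycin and 3 fell with TGFb; Rabggta, a subunit of the Rab prenyltransferase, rose with ionomycin by 0.76 ± 0.11 (adjusted p = 2.84e-05). Of 15 further genes of fatty acid and lipid synthesis, 5 fell and 1 rose with ionomycin, and 6 fell and 2 rose with TGFb. Fabp5, a fatty acid-binding protein gene, changed by -1.49 ± 0.27 with ionomycin (adjusted p = 3.86e-04) and Lpin1, a phosphatidate phosphatase gene, changed by -1.47 ± 0.26 (adjusted p = 3.86e-04). Me1, the malic enzyme that supplies NADPH, measured 152, 182 and 211 CPM with ionomycin, 63.4, 70.1 and 84 CPM with TGFb and 149, 159 and 229 CPM with DMSO. Its TGFb libraries lay below all others (-1.28 ± 0.09 against DMSO, adjusted p = 1.25e-09).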

How the data were processed

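Tools named in the submitters' processing notes are CASAVA, Trimmomatic 0.32, STAR and featureCounts, with mm10 as the build. For strand mode, annotation release and settings nothing is stated in the sources used here. The authors deposited whole-number read counts for each gene symbol, unscaled between libraries. RNA was extracted with either of 2 kits, and the labels do not say which library had which. Of 24527 entries, 5059 had 0 counts in all libraries, and 26 had names turned into dates, which took no more than 0.321% of any library.

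The genes and the further pathway lists were chosen with earlier results of these data known, so lists are described by counts and medians, beside all entries, with no test of a list. The analysis used edgeR 4.0.16 under R 4.3.3: filterByExpr over the 9 groups kept 13827 entries, TMM factors scaled the libraries, and robust quasi-likelihood F tests compared treatments in a model of treatment and line over all 18 libraries. Effects within lines, and their equality in the 3 lines (a joint test), came from a model with a mean per group. P-values were adjusted by Benjamini-Hochberg over all entries tested and called under 0.05. The SE is the size of the log2 fold change over the square root of F. Duplicate libraries correlated at 0.981 to 0.993 across genes and differed by more than sampling noise. Counting precision is set by the counts given and does not cover the spread between libraries. PCR copies could not be recognised, so the counting error may be larger than the counts imply.

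By rule, levels are given per role group for the 4 genes with the smallest p for ionomycin, the 2 with the smallest p for TGFb and those that depend on line; Srebf2 was added after its values were seen. Of the further pathway genes, those ranked first or second in their list by p could be named, and the text names only part of them. Alternatives were library totals, RLE factors, testing without the filter, limma-voom (limma 3.58.1), DESeq2 1.42.0, a mean per group, summed duplicates, the 2 treatments alone, and leaving out each line, each library, or libraries 8, 12, 14 and 18. Promoters came from RefSeq on GRCm38.p6, and gene models from GENCODE vM21 on GRCm38. The shorter sterol regulatory element was added after seeing the data.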

Additional observations from a re-analysis of the deposited data

Results flagged for a closer look

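The effect of ionomycin differed between the 3 lines in 6 genes by edgeR's joint test of equal effects, adjusted over all entries: Hmgcs1 (adjusted p = 0.00316), Lss (0.0038), Insig1 (0.00903), Acat2 (0.0187), Cyp51 (0.0384) and Scd2 (0.0445). In each the fall was greatest in PD7591, at -1.80 for Hmgcs1, -1.34 for Lss, -1.91 for Insig1, -2.61 for Acat2, -1.37 for Cyp51 and -2.44 for Scd2 on the log2 scale. The effect of TGFb differed between lines in Stard4 (adjusted p = 0.0158), with -0.67 in PD454, -1.72 in PD7591 and -1.18 in PD883. These tests rest on 2 libraries per group, and on leaving out 1 library the number of genes ran from 3 to 10 for ionomycin and from 0 to 5 for TGFb.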

How the results depend on the processing

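No paired analysis was possible by replicate number, because the groups share no library numbers; line was a term of the treatment model. Of 1156 counts and medians recomputed over 47 results, 1063 stayed within the limits set. For a median the limit was the SD of the medians of the 3 lines, 0.312 for ionomycin against DMSO. For a count it was wide: the 22 ionomycin falls with duplicates summed, against 29, lay within it. Of 3311 values of single genes 3095 kept their direction and their side of the threshold. Among the rest 170 lost a call, 25 gained one and 21 changed sign. The cause was not tested in any case below. Without a low-count filter the genes that depended on line numbered 12 for ionomycin and 4 for TGFb (1050 and 1391 of all entries, against 358 and 727), the TGFb count of genes higher within PD454 was 2 and the ionomycin count within PD883 was 0, as it was with library totals. RLE factors and limma-voom each gave 2 TGFb genes that depended on line. With duplicates summed, which leaves fewer samples, ionomycin called 1840 entries and TGFb 4581 entries, with 14 of the 35 genes called and 12 lower. Without PD883, 1 gene was higher with ionomycin than with TGFb. Without libraries 8, 12, 14 and 18 the line-dependent genes were 16 for ionomycin (1473 entries) and 2 for TGFb, and 4004 entries were called for ionomycin in PD7591. Library totals moved the median of all entries to -0.12 for ionomycin against DMSO and -0.11 for ionomycin against TGFb. The classical sterol regulatory element gave 0% of promoters. Signs changed for genes that had not passed: Ggps1 with ionomycin (-0.01 with library totals), Srebf2 with ionomycin (0.09 without PD7591), Abca1 with ionomycin (0.12 without PD883), Acaca with TGFb (0.07 without PD7591), Tm7sf2 with TGFb (0.22 without PD883), and, for ionomycin against TGFb, Sqle (-0.05 with library totals, -0.16 without PD883, -0.02 without the 4 libraries), Scap (-0.01 with library totals, -0.04 without the 4 libraries), Msmo1 (0.08 without PD7591) and Ebp (-0.02 without PD883). On leaving out 1 library at a time, Srebf2 with ionomycin ran from -0.14 to 0.03, Tm7sf2 with TGFb from -0.14 to 0.05, and, between treatments, Sqle from -0.07 to 0.10 and Ebp from 0.00 to 0.13. With 1 library left out, calls for ionomycin ran from 12 to 20 genes in PD454 (11 to 19 lower, 1010 to 3143 entries), 1114 to 2723 entries in PD7591, and 15 to 25 genes in PD883 (15 to 24 lower, 0 to 1 higher, 1903 to 3254 entries). For TGFb they ran from 4 to 13 genes in PD454 (3 to 9 lower, 1 to 4 higher), 11 to 21 in PD7591 (9 to 18 lower, 3388 to 5494 entries), and 1 to 3 higher in PD883. Line-dependent genes ran from 3 to 10 for ionomycin (106 to 675 entries) and 0 to 5 for TGFb (403 to 1069 entries). Depth limits Abca1, Abcg1 and Mylip, whose counts per library reach 0.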
